A study of Caenorhabditis elegans with 2 samples.

Results

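The genes for the proteins of the cytoplasmic ribosome were followed across the peak lists of a chromatin immunoprecipitation experiment on ZTF-29, a worm protein of the zinc finger family. The genes were all protein-coding genes of Caenorhabditis elegans with a symbol of rpl-, rps- or rla- followed by a digit, and ubl-1. They numbered 82 of 19985 protein-coding genes, with 50 for the large and 32 for the small subunit. The rule for the genes used their names alone and no measured value, but it was set with earlier results of these data known. In the immunoprecipitation, DNA bound by a tagged protein is pulled down and sequenced, and a peak is a stretch where reads pile up. Its summit is the highest point. The worms were of strain RW12283, in which a TY1, EGFP and 3xFLAG tag had been inserted at the endogenous ztf-29 gene by CRISPR. Midembryonic animals obtained by bleaching (age 0 hour in the labels) were taken whole, chromatin was sonicated to 200 to 800 bp, and an antibody against GFP was used. The 2 biological replicates make up a single group, which leaves no treatment or genotype to compare, and any embryonic cell type may have given the signal.

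Ribosomal protein genes are among the most highly transcribed genes of growing cells. Their products are needed in equal amounts, and many organisms control their genes together. In worms some of them lie in operons, in which a single promoter serves several genes, and some carry genes of small nucleolar RNAs (snoRNAs) in their introns. SnoRNAs guide the chemical modification of ribosomal RNA.

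The sequences under the peaks are shown first, because they are the sites that the summit positions point to. Each run reaches 50 bases to either side of a summit of the conservative list, on the strand of the ribosomal protein gene and in the ce11 (WBcel235) assembly. The runs come from the RefSeq genome. Capitals mark the word AAGTGTA, the word TACCGTA, the word AACACGC, the word AGTGTAT and the word AGTGTGC on either strand. These were the words of 7 bases held by the most summit windows of these genes. Ties at 4 windows were taken in alphabetical order, which left out CATACAC and also GAGTGTA. The word AAGTGTA shares 6 bases with the word AGTGTAT and can overlap it. The first 5 runs hold AAGTGTA. The run of rps-28 holds AGTGTGC as its single word, and those of rps-24 and rpl-6 hold none.
rpl-3, chrIII:3867525-3867625 (+): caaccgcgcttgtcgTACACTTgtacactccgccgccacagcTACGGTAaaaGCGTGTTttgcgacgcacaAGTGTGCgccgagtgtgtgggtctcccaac
rpl-15, chrIV:654897-654997 (-): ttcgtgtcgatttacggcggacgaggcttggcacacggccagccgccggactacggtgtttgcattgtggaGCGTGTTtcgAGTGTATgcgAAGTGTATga
rpl-20, chrIV:4750015-4750115 (-): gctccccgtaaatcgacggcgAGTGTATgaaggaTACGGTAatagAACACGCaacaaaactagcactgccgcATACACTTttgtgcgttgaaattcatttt
rpl-35, chrIII:7854632-7854732 (+): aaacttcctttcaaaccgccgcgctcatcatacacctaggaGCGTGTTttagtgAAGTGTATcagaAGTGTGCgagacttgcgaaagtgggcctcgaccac
rps-1, chrIII:4475602-4475702 (+): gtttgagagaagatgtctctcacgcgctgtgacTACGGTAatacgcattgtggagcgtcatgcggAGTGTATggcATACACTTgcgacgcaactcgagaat
rps-28, chrIV:1659218-1659318 (+): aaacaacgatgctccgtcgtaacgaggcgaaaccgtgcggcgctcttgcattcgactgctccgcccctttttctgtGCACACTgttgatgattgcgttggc
rps-24, chrIV:385530-385630 (+): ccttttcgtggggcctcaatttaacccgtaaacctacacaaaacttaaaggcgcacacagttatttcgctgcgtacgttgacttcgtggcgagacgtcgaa
rpl-6, chrIII:7208096-7208196 (+): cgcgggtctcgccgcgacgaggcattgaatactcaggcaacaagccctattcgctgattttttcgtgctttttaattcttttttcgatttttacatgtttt

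Of the 82 genes, 11 had a peak of the conservative list near their start, 6 for the large subunit and 5 for the small. The window reached 1000 bp upstream and 100 bp downstream of the annotated 5′ end. The share was 13.4% (95% exact interval 6.89 to 22.7), against 2.03% of all protein-coding genes (406 of 19985). The full list, which is the longer list made from both replicates, held a peak at 17 of the genes (20.7%, against 2.63% of all genes). Replicate 1 on its own listed a peak at 14 (17.1%, against 1.43%), and replicate 2 at 11 (13.4%, against 1.71%), a mean of 12.5 ± 2.12 genes (SD, n = 2). In each of the 4 lists the share of the ribosomal protein genes was higher than that of all genes, but the lists come from the same 2 libraries. Exact intervals cover counting error over genes only and take the genes as independent, although neighbouring genes can share a candidate. No test was made, since the genes were picked with earlier results known. The read depth of the libraries is unknown.

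**Figure D1:**
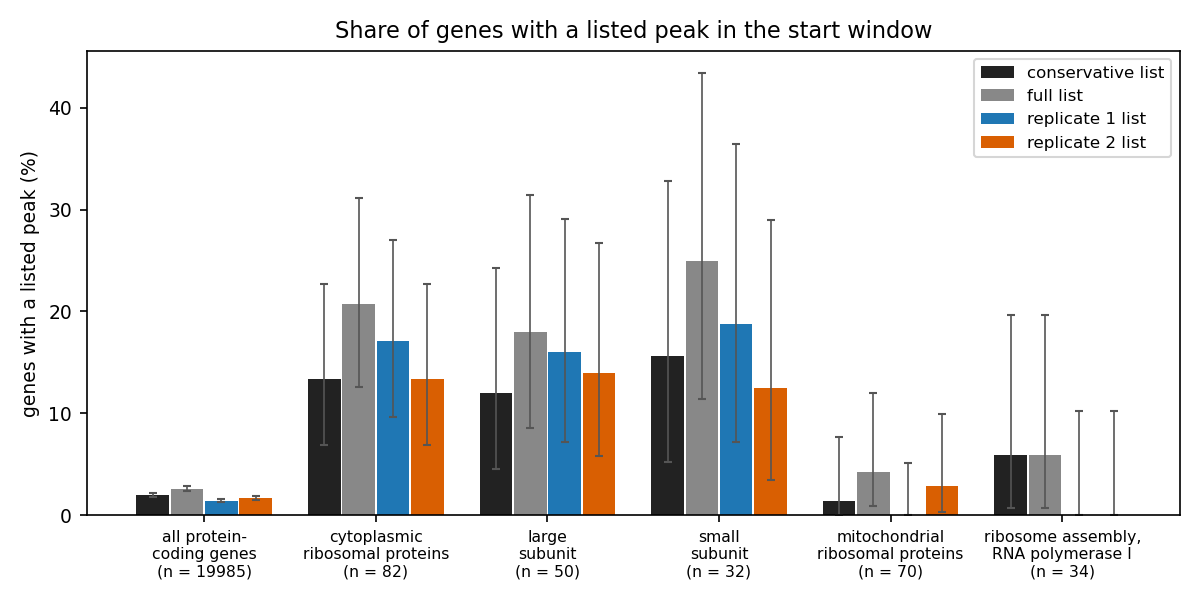
Share of genes (%) with a listed peak from 1000 bp upstream to 100 bp downstream of the start, for 6 gene lists in each of 4 peak lists. Bars start at 0 and error bars are 95% exact intervals. The cytoplasmic ribosomal protein genes reach 13.4% to 20.7%, all protein-coding genes 1.43% to 2.63%.

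The shares of the subunits lay within each other's intervals. In the conservative list 12% of the large subunit genes (interval 4.53 to 24.3) and 15.6% of the small subunit genes (5.28 to 32.8) had a peak. The order turned in replicate 2, where the shares were 14% and 12.5%, from 16% and 18.8% in replicate 1. None of rla-0, rla-1 and rla-2, the genes of the stalk that recruits elongation factors to the large subunit, was listed anywhere. Their candidates in the conservative file had signals of 22.2, 26.1 and 34.8.

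Of the 82 genes, 18 were listed in at least 1 of the 4 lists and 64 in none. The peak was in all 4 lists at 9 genes, namely rpl-3, rpl-7, rpl-15, rpl-20, rpl-35, rps-1, rps-24, rps-26 and rps-28. The genes rpl-6 and rps-20 were in 3 lists. The remaining 7 were missing from the conservative list. Of these, rpl-1, rpl-34, rpl-43 and rps-19 were in the full list and in 1 replicate, rps-0 and rps-23 in the full list alone, and rpl-22 in replicate 1 alone. No gene had more than 1 listed peak in its window in any list.

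Among the large subunit genes the peak of rpl-3 was the strongest. The signal is the value the authors' peak caller gave each peak, on a scale that no source states, so that it is comparable within a list only. For rpl-3 (WBGene00004414, peak chrIII:3867492-3867659), whose product reaches into the peptidyl transferase centre, the signal was 293.7 in the conservative list, at rank 21 of 814 peaks. In the replicates' own lists it was 109.4 and 193.9, and the summits lay at -295 and -279 bp from the start, where minus means upstream. No other protein-coding gene had this peak in its window.

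For rpl-15 (WBGene00004427, peak chrIV:654868-654999) the conservative signal was 225.5, at rank 59. In the replicates it was 104.7 at -352 bp and 121.5 at -372 bp. In both replicates rpl-3 and rpl-15 had higher signals than all other ribosomal protein genes. Among the remaining large subunit genes, rpl-20 (WBGene00004432, peak chrIV:4749927-4750202), had 159.9 in the conservative list, and 90.7 at -318 bp and 72.5 at -290 bp in the replicates. Its peak lay nearer to the divergent gene Y17G9B.5, at -175 bp from that start.

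The other large subunit genes of the conservative list had lower signals. For rpl-35 (WBGene00004449, peak chrIII:7854544-7854819), whose protein sits by the exit of the nascent chain tunnel, it was 132.4, with 75.4 and 57.2 in the replicates. Its summits lay at -451 and -468 bp, the farthest upstream among the 11 genes. For rpl-7 (WBGene00004418, peak chrI:110598-110873) the signal was 124.9, with 43.7 at -276 bp and 77.99 at -298 bp in the replicates. The summit of rpl-7 lay in an exon of the non-coding RNA gene F53G12.16.

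The peak of rpl-6 (WBGene00004417, peak chrIII:7208008-7208283) was in the list of replicate 2 and not in that of replicate 1. The conservative signal was 100.03, and replicate 2 listed the peak with 71.7. In replicate 1 the candidate there had 33.3 and an irreproducible discovery rate (IDR) of 0.140, over the limit of 0.01. Its signal was above 97.7% of all candidates of replicate 1. The IDR is the expected share of peaks, among those ranked at least as high, that do not recur between the sets of calls compared. A replicate's own file belongs to that replicate alone, so that its IDR does not compare the replicates with each other.

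Among the small subunit genes rps-24 (WBGene00004493, peak chrIV:385442-385717) was the strongest in the conservative list, with a signal of 162.6 at rank 149. In the replicates the values were 87.95 at -319 bp and 78.5 at -307 bp. For rps-28 (WBGene00004497, peak chrIV:1659130-1659405) the signal was 136.3, with 57.0 at -437 bp and 78.7 at -423 bp. In replicate 2 the value of rps-28 was thus slightly above that of rps-24. No other protein-coding gene started within 800 bp of either summit.

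For rps-26 (WBGene00004495, peak chrI:14759382-14759657), whose protein lies at the mRNA exit channel, the signal was 122.9, with 53.6 at -419 bp and 68.5 at -389 bp in the replicates. This peak lay between neighbours, with its summit at -47 bp from the start of tmem-107 and 108 bp from the snoRNA gene F39B2.14. For rps-1 (WBGene00004470, peak chrIII:4475514-4475789) it was 116.04, with 47.2 at -266 bp and 63.2 at -255 bp. Its summit lay in exons of the non-coding RNA genes F56F3.10 and F56F3.11.

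The peak of rps-20 (WBGene00004489, peak chrI:14469210-14469485), of the head of the small subunit, was in the list of replicate 1 and not in that of replicate 2. The conservative signal was 99.2 at rank 424, and replicate 1 listed it with 50.4 at -231 bp. The candidate of replicate 2 had a signal of 52.6 at rank 913 of 43139, above 97.9% of all candidates there, yet an IDR of 0.821. Its summit at -256 bp was 25 bp from that of replicate 1. In the conservative list it lay nearer to ekl-4, at -152 bp from that start.

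**Figure D2:**
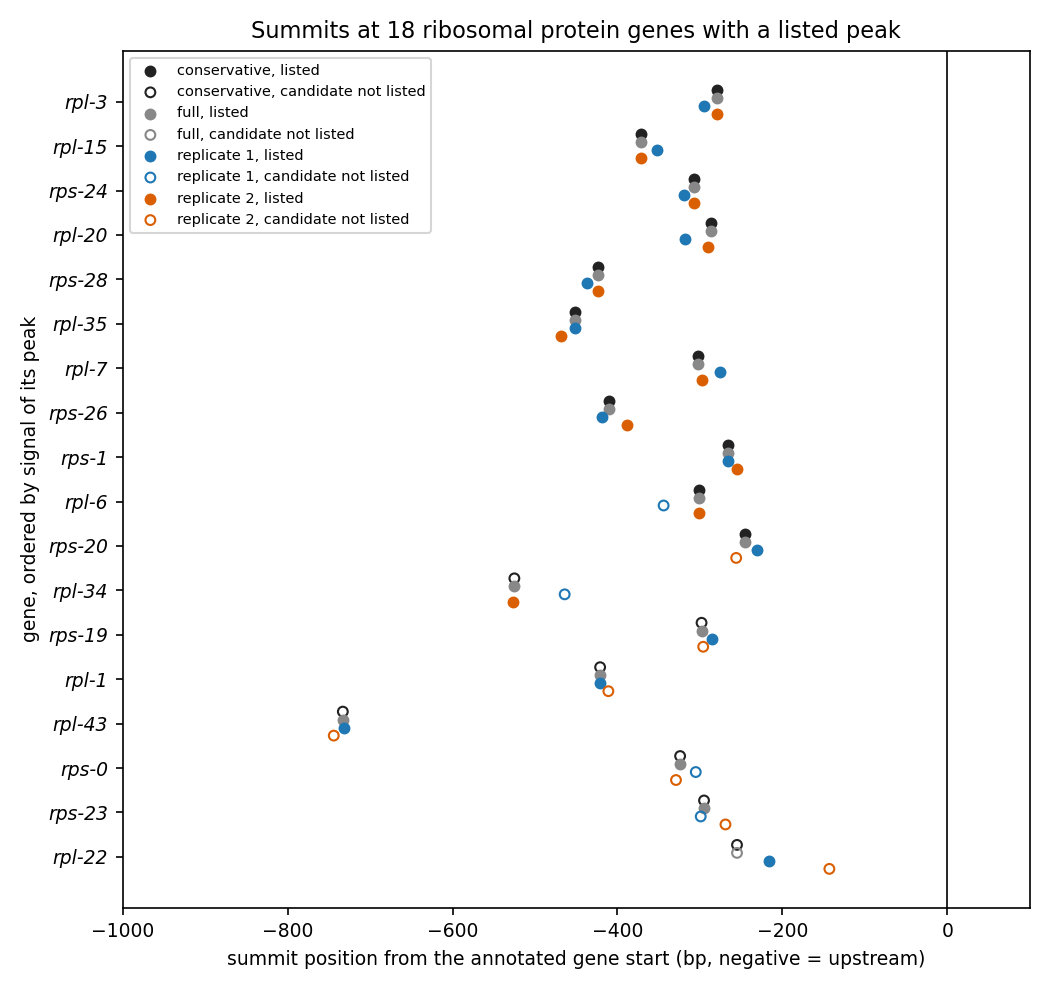
Summit position from the annotated gene start (bp, negative is upstream) at the 18 genes with a listed peak, ordered by signal. Filled points are listed peaks and open points are ranked candidates that were not listed. All 11 genes of the conservative list have their summit between -245 and -452 bp. At these 11 the summits of the replicates are 11 to 43 bp apart, and over all 18 genes up to 73 bp.

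The genes of the full list that the conservative list lacked had signals from 62.2 to 91.9. The signal was 91.9 at rpl-34, 83.8 at rps-19, 72.99 at rpl-1, whose product forms a mobile stalk, and 71.96 at rpl-43. It was 71.3 at rps-0 and 62.2 at rps-23, whose protein is part of the decoding centre. At all 6 the summit was nearer to another start, at -148 bp from ppm-1.H, -147 bp from hsr-9, -203 bp from Y71F9AL.9, -188 bp from Y48B6A.1, -49 bp from rbg-3 and -239 bp from dpm-3. At rpl-22 the peak of replicate 1 (signal 39.9) lay at -216 bp from rpl-22 and -221 bp from ify-1. With these peaks, a choice between the neighbouring genes cannot be made from position.

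The summits of the replicates were compared at each listed gene. At the 11 genes of the conservative list the summits of the replicates were 11 to 43 bp apart (median 20 bp), and at 10 of them within 30 bp. Over all 18 listed genes the gap was 10 to 73 bp (median 21 bp). The signals of the replicates over the 11 genes had a Pearson correlation of 0.68 and a Spearman correlation of 0.57. This is a description over peaks of the same 2 libraries, not over independent samples.

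**Figure D3:**
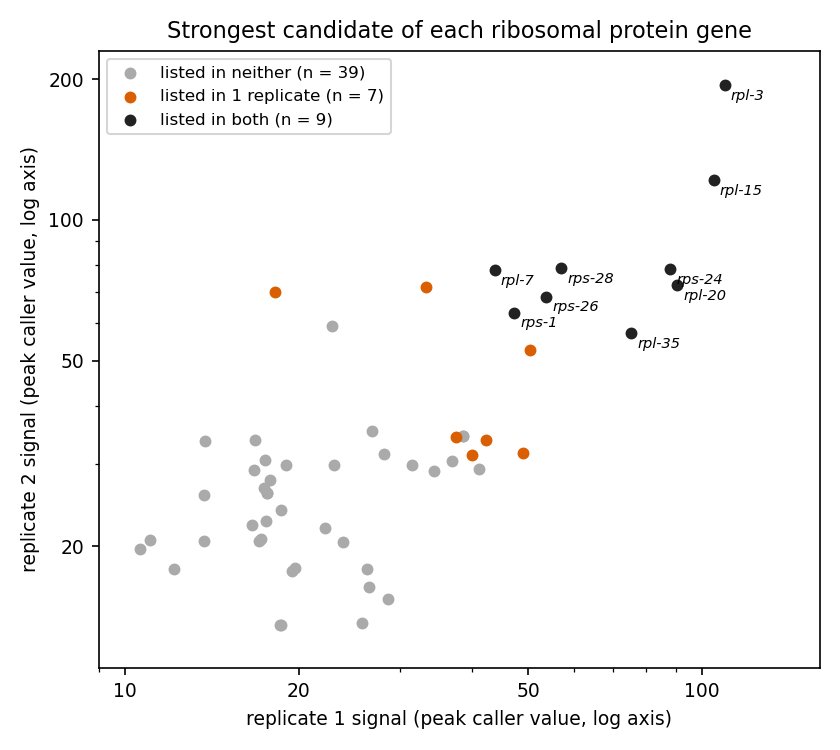
Signal of the strongest candidate in the window in replicate 1 (x, log axis) and replicate 2 (y, log axis) for the 55 ribosomal protein genes with a candidate in both. The candidates of the replicates lie within 50 bp of each other at 29 of these genes, so that other points can pair different sites. The 9 genes listed in both replicates fill the upper right, with rpl-3 at 109.4 and 193.9.

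The candidates that failed the limit were counted too. The conservative ranked file held a candidate in the window of 71 of the 82 genes (86.6%), against 46.2% of all protein-coding genes. Of the genes with a candidate, 15.5% had it listed, against 4.40% of all genes with one. At the 60 genes with an unlisted candidate the signal ran from 10.5 to 91.9, with a median of 35.7. The 11 listed values started at 99.2, so that the ranges did not overlap among these genes. Listing went by the IDR, so that this gap is in part set by the limit. The gap is no boundary for the whole conservative list, which held lower signals, such as 74.3 at the gene fib-1.

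The genes nearest to the IDR limit were the following. Just inside were rps-1 (0.000803), rps-20 (0.00111) and rpl-6 (0.0015). Just outside were rpl-39 and rps-30, both with 0.0132, then rpl-1 with 0.0136, ubl-1 with 0.0164 and rps-19 with 0.0209. The genes rpl-39 and rps-30 form a divergent pair with 498 bp between them and share 1 candidate, with a signal of 68.6. For ubl-1, whose product is a ubiquitin-like protein fused to a small subunit protein, the candidate had a signal of 83.6 at -203 bp. In the replicates it had 22.8 and 59.2, with IDRs of 0.707 and 0.0766.

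At 4 genes, rpl-19, rpl-33, rpl-37 and rps-5, no ranked file held a candidate in the window. At 55 genes all 4 ranked files held one. An empty window shows that no candidate was called there and does not show that the protein is absent. Input reads of a control were not analysed here.

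More of the ribosomal protein genes than of all genes had their strongest candidate 200 to 500 bp upstream. The range was picked with the peak positions known, and all genes were not matched for gene arrangement, so the shares are a description. In the conservative ranked file 44 of 71 (62.0%) lay there, against 29.1% of the 9230 genes with a candidate. In replicate 1 the shares were 70.6% and 30.05%, and in replicate 2 they were 59.0% and 28.8%. Without the listed genes 33 of 60 lay in this range. In the conservative file the modal bin was 300 to 400 bp upstream, with 29.6% of the ribosomal protein genes and 9.83% of all genes. This was also the modal bin in replicate 1 (32.4%), whereas in replicate 2 it was 200 to 300 bp upstream (22.95%, with 21.3% at 300 to 400 bp).

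**Figure D4:**
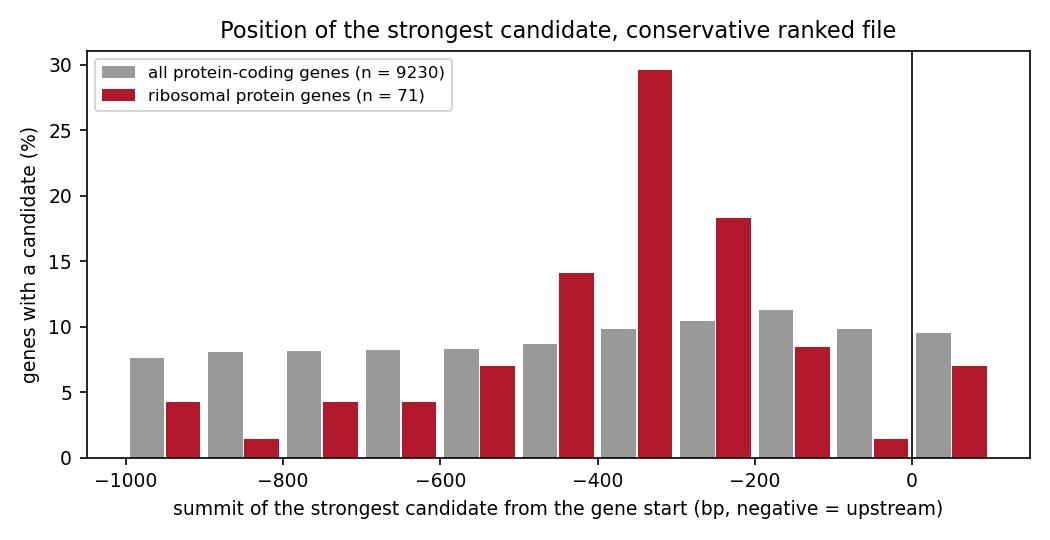
Position of the strongest conservative candidate from the gene start in bins of 100 bp, as a percentage of the genes with a candidate, for 71 ribosomal protein genes and 9230 protein-coding genes. The ribosomal protein genes peak from 300 to 400 bp upstream (29.6%), while all genes spread over the window.

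Most listed peaks lay in the same range, which was picked with their positions known, so that these counts are in part set by that choice. All 11 conservative summits lay 200 to 500 bp upstream, with a median of -302 bp and quartiles of -390.5 and -283 bp. Of the 395 other protein-coding genes with a conservative peak, 163 (41.3%) did so. Their median of -315 bp was nearly the same, and their quartiles of -536.5 and -167.5 bp were wider. In the full list 15 of 17 genes were in this range, the exceptions being rpl-34 at -525 bp and rpl-43 at -733 bp.

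In the conservative file the candidates of the large subunit genes lay farther upstream, with no test made. The median was -374 bp for 44 large subunit genes and -298 bp for 27 small subunit genes. In the range from 200 to 500 bp upstream were 54.5% of the former and 74.1% of the latter. In replicate 1 these shares were 70.0% and 71.4%, so that the difference was not seen there, and in replicate 2 they were 48.6% and 73.1%. Annotated worm 5′ ends are often sites of trans-splicing, so that distances are to the annotated end. The coding start lay a median of 8.5 bp from it, within 100 bp at 79 of the 82 genes.

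A divergent neighbour was common among these genes. The nearest upstream gene was divergent at 55 of the 82 (67.1%), against 45.4% of all protein-coding genes, and within 1000 bp at 48 (58.5%, against 17.5%). Of the 48 with a close divergent neighbour, 6 had a conservative peak (12.5%), against 4.43% of all genes so placed. In the full list 12 did (25%, against 5.57%). The conservative peak also lay in the window of another protein-coding gene at 7 of 11 genes, against 47.5% of all genes with a peak. It was nearer to the other start at 3, rpl-20, rps-20 and rps-26 (27.3%, against 27.6% of all genes with a peak). In the full list the peak was nearer to another start at 9 of 17 genes (52.9%, against 28.0%). In replicate 1 it was so at 6 of 14 (42.9%, against 31.9%), and in replicate 2 at 3 of 11 (27.3%, against 27.5%).

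Genes that could sit inside an operon had no listed peak, but they were too few to set them apart from the others. A gene on the same strand ended within 500 bp upstream of 9 ribosomal protein genes, and 0 of the 9 were listed in any of the 4 lists, which allows a share of up to 33.6% (exact interval). These were rla-1, rpl-16, rpl-19, rpl-25.1, rpl-27, rps-2, rps-7, rps-16 and rps-17. Among all genes so placed 1.33% had a conservative peak. Of the other 73 ribosomal protein genes 15.1% had one, a share inside that interval. With a window of 2000 bp upstream rps-16 gained a conservative peak. Of the 9 upstream partners 1 was listed, fib-1, the gene of the rRNA methyltransferase fibrillarin, which ends 109 bp before rps-16. Its peak at -186 bp had a signal of 74.3, rank 706 in the conservative list, and neither replicate listed it. No operon annotation was used, so closeness stands in for it.

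A same-strand gene followed within 500 bp at 31 genes, and 6 of these had a conservative peak (19.4%, interval 7.45 to 37.5), against 5 of the other 51 (9.80%, 3.26 to 21.4). The intervals overlapped. Of all 3598 protein-coding genes so placed, 3.20% had a conservative peak. The 6 were rpl-6, rpl-15, rpl-20, rps-20, rps-24 and rps-28.

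The distance from the summits to small RNA genes was also measured. Of the 11 conservative summits, 1 lay within 200 bp of a tRNA, snoRNA or snRNA gene, that of rps-26 (9.09%, interval 0.230 to 41.3). The share was 14.3% over all 406 protein-coding genes with a conservative peak, which lies inside that interval, and 30.7% over all 814 conservative peaks. Inside 14 of the ribosomal protein genes the annotation places 21 snoRNA genes. Of these 14, 3 had a conservative peak, rpl-6, rpl-7 and rpl-15 (21.4%, interval 4.66 to 50.8). Of the 192 protein-coding genes with a snoRNA gene inside, these included, 16 had one (8.33%). The summits of the 3 genes were 467, 556 and 586 bp from the nearest snoRNA gene. At 9 of the 11 genes the summit lay in no annotated gene.

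By chromosome, the 82 genes split into 25 on I, 10 on II, 19 on III, 18 on IV, 8 on V and 2 on X. The conservative peaks were on I (3), III (4) and IV (4). None of the 20 genes on II, V and X had one, which allows a share of up to 16.8%, against 168 of all 11174 protein-coding genes there. On those the full list had a peak at rpl-43 and replicate 1 at rpl-22 and rpl-43, all on II.

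Other genes of the ribosome pathway were read against the same background. Of 70 genes of mitochondrial ribosomal proteins, 1 had a conservative peak (1.43%, interval 0.0362 to 7.70, against 2.03% of all protein-coding genes). This was mrpl-23, at -996 bp and 57 bp from the snoRNA gene T08B2.13. Replicate 1 listed 0 of the 70, which allows up to 5.13%, and replicate 2 listed 2. The full list held a peak at 3 (4.29%, against 2.63% of all genes). Of 34 genes of ribosome assembly and RNA polymerase I, 2 had a conservative peak (5.88%, interval 0.720 to 19.7, against the same 2.03%). These were fib-1 and rpac-19, a subunit shared by RNA polymerases I and III, with a signal of 90.9 at -117 bp, and neither replicate listed them. Of 6 genes of elongation factors none was listed, which allows a share of up to 45.9%. Of ubq-2 and rack-1, whose products are also parts of the ribosome, neither was listed, which allows up to 84.2%.

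The words marked in the sequences were more frequent at the ribosomal protein genes than at other peaks. They were chosen from these same windows as the most frequent there, so that their high shares are set by the choice and are given as a description. AAGTGTA was within 50 bp of 5 of 11 summits, against 11 of all 814 conservative summits (1.35%), these 5 included. It was at 8 of the 320 conservative summits in the window of a protein-coding start and at 1.17% of 11087 failed candidates there. TACCGTA was at rpl-3, rpl-7, rpl-20, rps-1 and rps-20, against 15 of 814 (1.84%). At least 1 of the 5 words was at 9 of 11 genes, against 64 of 814 (7.86%).

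The words were also counted upstream of the genes without a listed peak. Among the 64 genes listed nowhere, AAGTGTA lay 200 to 500 bp upstream at 2, rpl-5 and rpl-38 (3.12%), against 4.80% of all protein-coding genes. AGTGTAT was there at 0 of the 64, and AACACGC at 2. TACCGTA was there at 7 of the 64 (10.9%), against 4.59% of all protein-coding genes. A high share at the genes with a peak follows from how the words were chosen. A pair of windows also held a longer common run. In those of rpl-15 and rps-1, printed above, the same 14 bases gcattgtggagcgt occur on the gene's strand, and no other of the 814 windows holds them. The longest common run of the 55 pairs of windows ran from 6 to 14 bases, with a median of 7.

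TTAGGC, the unit of worm telomeres, is a word known from other peaks of these data. It was within 50 bp of 0 of the 11 summits, against 12.9% of all conservative summits. At the 320 conservative summits in the window of a protein-coding start the share was 5.94%, and 11 windows are too few to tell 0 from that. Farther out, in the stretch 200 to 500 bp upstream of the start, TTAGGC was at 7 of the 11 genes (63.6%). In the same stretch it was at 12 of the 64 genes listed nowhere (18.8%), at 8.10% of other genes with a conservative peak and at 7.46% of all protein-coding genes. The 7 copies lay 51 to 248 bp from the summit (median 88 bp), and 6 of them on the side toward the gene. The stretch was looked at after the peak positions were known. Each copy was a single unit per gene, at rpl-3, rpl-6, rpl-7, rpl-15, rpl-35, rps-26 and rps-28.

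The remaining words were rare at these summits, but none was frequent at all conservative summits either. With 11 windows the shares cannot be told apart. GAGAGA was at rps-1 alone (9.09%, against 14.9% of all conservative summits). The word CTGCGTC was at 0 of the 11 (6.02% of all conservative summits), as were TATAAA (4.42%) and CACGTG (2.33%). Likewise GCGCGC was at 0 (8.60%), and so were TTTCAG (3.93%) and the tRNA B box (11.2%). The GC content of these windows had a median of 50.5% at these 11 summits and at all 814, of 47.5% at the unlisted candidates of ribosomal protein genes and of 39.6% at failed candidates near protein-coding starts.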

How the data were processed

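Peak lists on the ce11 assembly were deposited for each of the 2 replicates and for both together, each with a ranked file of candidates. The authors' aligner, peak caller, their versions and the read depth: not given in the sources used here. The deposited signal is the peak caller's value per peak. The deposited score is minus log10 of the global IDR, capped at 5, per the deposited readme and values, and no listed peak exceeded 0.01. Gene starts came from Ensembl release 115 (WBcel235) and sequences from the RefSeq genome of the same assembly. A gene took the strongest summit within 1000 bp upstream or 100 bp downstream of its annotated 5′ end. Shares have exact (Clopper-Pearson) intervals at 95%. The members, lists, words and named genes (every gene listed in any list, the 5 unlisted with the lowest IDR, those with no candidate, and nearby RNA genes and starts) were chosen with earlier results of these data known. Of 36 assembly genes 34 matched. On simulated data 227 of 227 summits planted in windows were recovered. No test across genes was made. Python 3.11.15, numpy 2.4.6, pandas 2.3.3, scipy 1.17.1 and matplotlib 3.10.9 were used.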

Additional observations from a re-analysis of the deposited data

How the results depend on the processing

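No paired analysis was possible because the 2 replicates form a single group. The count of 11 ribosomal protein genes with a peak was 17 in the full list and 22 among ranked candidates with an IDR of at most 0.05. In those settings the large subunit had 9 and 12 genes, the small subunit 8 and 10. The replicates' own lists gave 11 to 14 genes, 7 to 8 for the large and 4 to 6 for the small subunit. The other settings gave 8 to 13. Without peaks nearer to another start the small subunit had 3. Over all genes, 406 became 206 with signal at or above the list median and 688 with an IDR of at most 0.05. The median distance of -302 bp was -329 bp from the coding start and -307 to -318.5 bp in the replicates. The median rank, as the percentage of listed peaks below, was 70.3. It was 66.1 with a window of 2000 bp, 62.0 with an IDR of at most 0.05 and 49.6 to 54.1 in the replicates. The causes were not tested. The 1 peak near a snoRNA gene became 2 at 500 bp and 0 at 50 bp. The 9 genes with a same-strand gene upstream became 5 with a gap of 300 bp and 25 with 1000 bp.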
